A study of Mus musculus with 8 samples.

Results

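Elastic fibre and microfibril genes were followed in 8 Myc-CaP tumors by RNA sequencing. The members are 10 genes, found by their symbols among the 38115 genes counted: Mfap2, Mfap4, Mfap5, Eln, Fbn1, Fbn2, Fbln5, Efemp2, Lox and Ltbp1. Mfap4 was chosen by its own counts, because it was lower in metastatic than in primary tumors of this same data set, and the other 9 were named for their function as its partners. The values of Mfap4 in metastatic and primary tumors are therefore given as a description, with no test. Myc-CaP is a mouse prostate cancer cell line from a tumor driven by Myc, a transgene expressed in the prostate epithelium. Androgen sensitive (Myc-CaP/AS) or castrate resistant (Myc-CaP/CR) cells were placed in the anterior prostate lobes of FVB male mice, either intact or castrated by surgery beforehand. The labels do not say which cells went into which host. Of the 4 primary and the 4 metastatic tumors, 2 each were AS and 2 were CR. Numbers 1 and 2 after AS or CR only name tumors. The metastases are labelled as matched, and their library identifiers run on from those of primary tumors, but no label names the primary tumor of a metastasis. The organ of each metastasis and the age of the mice were not given. All 8 libraries came from tumor tissue, which can hold host stroma besides the transplanted cells.

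An elastic fibre is a core of cross-linked elastin on a scaffold of microfibrils, which are built from fibrillins. Small microfibril-associated proteins decorate the scaffold, fibulins bring elastin and its cross-linking enzyme to it, and latent TGF-beta binding proteins tie inactive TGF-beta to it. In the normal prostate these fibres belong to the fibromuscular stroma around the glands, where fibroblasts and smooth muscle cells make most of their components.

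Total counts ranged from 20905806 to 91886163 per tumor, with a median of 72949495.5 in AS and 32748049.5 in CR tumors. A count of 0 allows up to 3 counts, which on the normalized scale was 1.74 in metastatic AS2 and 8.82 in primary CR2. A normalized count is a raw count per effective library size (total times TMM factor), rescaled to the mean of the 8 effective sizes, and counting limits and intervals cover counting error only. The library identifiers of AS and CR tumors came from separate number ranges, so phenotype and anything tied to these identifiers cannot be told apart. Marker lists of 10 genes each were checked against the label of prostate tumor tissue. Of the epithelial list, Epcam, Krt18, Cdh1 and Cldn7, named after their values were seen, stayed under 1 CPM (counts scaled to a common library total) in every tumor. Of the prostate secretory list, 8 of 10 genes were under 1 CPM in every tumor and Spink1 was at 0. Of the remaining genes, Tgm4 ranged from 3.66 to 7.29 CPM, and Msmb ranged from 0 to 6.70 CPM, highest in primary AS1.

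The members spanned a wide range of levels. Levels were compared between genes as RPKM, the CPM per kilobase of merged exon. Ltbp1, a latent TGF-beta binding protein, had the highest level, 25.6 ± 10.3 RPKM (SD, n = 8), and ranged from 12.3 to 40.9. Efemp2, a fibulin that helps bring lysyl oxidase to elastin, followed at 14.2 ± 4.85 RPKM, with a range of 6.83 to 19.9 that overlapped that of Ltbp1. Both stood apart from every other member, since the next gene, the elastin cross-linking enzyme Lox, ranged from 0.332 to 2.01 RPKM around a mean of 0.984. Below Lox came Fbn1 at 0.534, Fbln5 at 0.278, Mfap5 at 0.163, Mfap4 at 0.101, Fbn2 at 0.0891, Eln at 0.0414 and Mfap2 at 0.0333 RPKM on average, and the ranges of neighbours in this order overlapped in each case. Of all reads on the 10 genes, Ltbp1 held 80.2% and Efemp2 held 15.5%. Elastin itself, the core protein of the fibre, held 0.103%, with 188 reads over the 8 tumors, and Mfap2 had 19 reads.

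**Figure D1:**
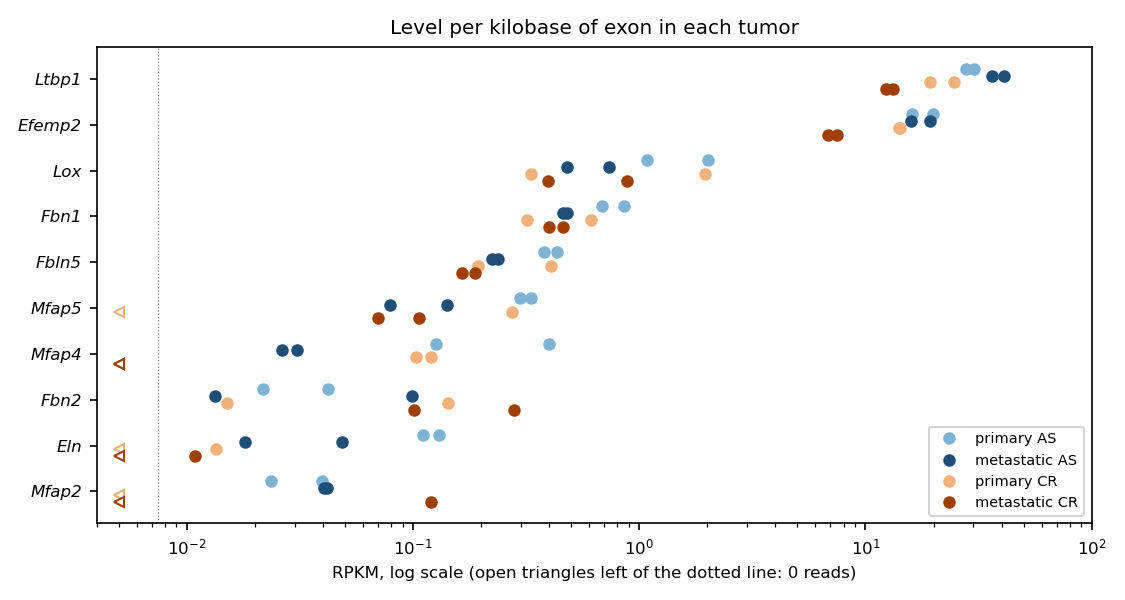
Level of each member in each tumor in RPKM on a log scale, ordered by the mean, with colours for the 4 groups and open triangles for tumors with 0 reads. Ltbp1 and Efemp2 lie between 6.83 and 40.9 RPKM in all 8 tumors, and no tumor reached more than 2.01 RPKM for any other member.

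Sequence just upstream of the transcription start was available for 5 of the 10 members in RefSeq (GRCm38.p6). It is shown for Ltbp1 and Efemp2, the members with nearly all of the reads and with the differences between phenotypes described further on. Each run is the 250 bases before an annotated start, on the plus strand and written 5′ to 3′, with GC boxes (GGGCGG, or CCGCCC on the other strand) in capitals. The first Ltbp1 window is chr17:75005279-75005528, the second chr17:75178531-75178780, and the Efemp2 window, the nearest of 3 to its annotated start, is chr19:5473696-5473945.
Ltbp1 first start: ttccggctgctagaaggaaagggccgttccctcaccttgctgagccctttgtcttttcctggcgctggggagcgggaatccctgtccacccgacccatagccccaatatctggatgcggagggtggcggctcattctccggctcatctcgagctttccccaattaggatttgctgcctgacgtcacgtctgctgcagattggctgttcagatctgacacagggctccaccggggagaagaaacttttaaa
Ltbp1 second start: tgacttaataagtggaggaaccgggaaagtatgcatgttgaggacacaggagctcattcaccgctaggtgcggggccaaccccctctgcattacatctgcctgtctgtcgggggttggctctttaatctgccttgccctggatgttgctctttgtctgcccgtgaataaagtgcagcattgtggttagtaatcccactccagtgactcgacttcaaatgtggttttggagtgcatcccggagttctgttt
Efemp2: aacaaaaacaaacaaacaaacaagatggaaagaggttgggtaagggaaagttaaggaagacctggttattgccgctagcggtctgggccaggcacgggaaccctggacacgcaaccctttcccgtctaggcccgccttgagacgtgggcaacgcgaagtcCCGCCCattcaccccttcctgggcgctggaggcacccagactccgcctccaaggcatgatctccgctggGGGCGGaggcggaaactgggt
The Efemp2 window held 2 GC boxes, and 32.7% of 32851 windows of this length over all genes held at least 1. Neither strand of the 3 windows held an E-box (CACGTG, in 6.02% of all windows), an AP-1 site (TGACTCA, in 4.46%) or a TATA box (TATAAA, in 12.4%). The windows held 12 and 7 CpG pairs for Ltbp1 and 15 for Efemp2, beside a median of 6 over all windows.

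The first comparison asked whether the partners of Mfap4 were also lower in metastatic than in primary tumors. Mfap4 encodes a microfibril-associated protein that binds elastin and fibrillin (chr11:61485431-61488900 in mm10, 6 merged exons). Among primary tumors it had 45.4 and 14.4 normalized counts in AS1 and AS2, and 13.7 and 11.8 in CR1 and CR2. Among metastatic tumors it had 3.01 and 3.49 in AS1 and AS2, and 0 in both CR tumors. Every metastatic tumor was below every primary tumor, and primary AS1 was far above the other primary tumors. These values came from few reads, between 4 and 48 in primary and between 0 and 6 in metastatic tumors. The 4 reads of primary CR2 allow 3.2 to 30.1 normalized counts (exact Poisson interval, 95%). By the same interval, the 0 reads of metastatic CR1 and CR2 allow up to 6.40 and 9.16. The limit of 3 counts puts them at 5.20 and 7.45. The mean was 21.3 ± 16.1 in primary and 1.62 ± 1.89 in metastatic tumors (SD, n = 4 each), a log2 fold change of -3.25 (SE 0.80) in edgeR's quasi-likelihood fit. Mfap4 shares 89 exon bases with Mapk7 on the other strand, which had 64 to 419 reads per tumor. None of the 1670 read-length windows of the longest Mfap4 transcript occurs there. In whole tumors, fewer cells of a type and less RNA per cell cannot be told apart.

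Among the partners that passed the low-count filter, 6 of 8 had lower and 2 had higher fitted values in metastatic tumors, and no difference passed an adjusted p of 0.05. Their median log2 fold change was -0.63, beside a median of -0.03 over all 17104 genes tested, of which 53.8% were lower. None of the 8 was called after adjustment over all genes by edgeR, DESeq2 or limma-voom, which also called 0.0% of all genes. At an unadjusted p under 0.05, edgeR and limma-voom each gave 1 partner, Fbln5, and DESeq2 gave 2, beside 2.68% of all genes in either direction and 1.12% lower in edgeR. The labels call the metastases matched without naming their primary tumors, and with each of the 4 possible pairings as a replicate block edgeR called none of the partners and gave 1 or 3 of them at an unadjusted p under 0.05. The 3 were Eln, Fbln5 and Lox, in 2 of the 4 pairings, among them the one that joins consecutive library identifiers. In those 2 pairings 636 and 598 of the 17104 genes were lower at that p, against 192 in the fit without a block. Without primary CR2, edgeR gave 4 partners at an unadjusted p under 0.05, all lower, beside 285 of 17673 genes that were lower. It gave 0 partners without primary AS1, primary AS2, metastatic AS2 or metastatic CR2. Mfap2 did not pass the filter, and a fit without the filter had 7 of 9 partners lower. In all 8 tested partners the groups overlapped, beside 0.848% of genes that were lower in metastatic tumors without overlap.

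The scaffold and its associated proteins gave small or scattered differences. Fbn1, the main fibrillin of adult microfibrils, had 491 and 616 normalized counts in primary AS, 441 and 229 in primary CR, 332 and 345 in metastatic AS, and 329.6 and 288 in metastatic CR tumors. The metastatic tumors lay close together, inside the wider spread of the primary tumors, and the log2 fold change was -0.46 (SE 0.29, adjusted p = 0.997 in edgeR). Fbn1 shares 2442 exon bases with the antisense gene Gm9913, which had 2 to 13 reads per tumor. Of the read-length windows of the longest Fbn1 transcript, 19.8% also occur there. The strand setting of the counting is not given, so reads of these pairs cannot be told apart. Fbn2, the fibrillin of developing tissue, ran from 10.5 in metastatic AS2 to 219 in metastatic CR1 and from 11.8 to 111 in primary tumors. Its log2 fold change was 1.10 (SE 0.89), with tumors high and low in both groups.

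Mfap5, which like Mfap2 is a small glycoprotein bound to fibrillin, had 71.0, 63.4 and 58.2 normalized counts in primary AS1, AS2 and CR1, and 0 in primary CR2. Its metastatic values were 30.1 and 16.9 in AS and 22.6 and 14.9 in CR tumors. The first 3 primary tumors were above all 4 metastatic tumors, and primary CR2 was below them all, although its 0 reads allow up to 8.82. The log2 fold change was -1.21 (SE 0.78). Mfap2 had 0 to 5 reads per tumor, at or near the count limit throughout, so no difference was detectable at this depth.

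Elastin, the enzyme that cross-links it and the fibulin that guides its assembly were lower on average in metastatic tumors. Eln had 53.0 and 62.6 normalized counts in primary AS tumors, 6.47 and 0 in primary CR, 23.3 and 8.72 in metastatic AS, and 5.20 and 0 in metastatic CR tumors. The primary tumors were split by phenotype, with both AS tumors above all others, and the log2 fold change was -1.61 (SE 1.08). Lox had 569, 308, 556 and 94.1 in primary AS1, AS2, CR1 and CR2, and 208, 135, 249.8 and 112 in the metastatic tumors in the same order. All primary tumors except CR2 were above all metastatic tumors, with a log2 fold change of -1.12 (SE 0.51). Fbln5, a fibulin that places elastin onto microfibrils, had 155, 177, 167 and 79.4 in the primary and 96.9, 91.3, 67.7 and 77.0 in the metastatic tumors. It was lower in the metastatic tumor in 14 of 16 pairs of a metastatic with a primary tumor. The number was 12 each for Mfap5, Fbn1 and Lox, 11 for Efemp2, 10 for Eln, 8 for Ltbp1, 6 for Fbn2 and 2 for Mfap2. It was 16 for Mfap4, which was chosen on this contrast. The share of all genes with as many pairs as Fbln5 was not computed. The log2 fold change of Fbln5 was -0.80 (SE 0.32, unadjusted p = 0.0318 and adjusted p = 0.997 in edgeR), from a mean of 145 ± 44.4 to 83.2 ± 13.3 (SD, n = 4 each).

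The members with the highest levels had no common direction. Efemp2 was lower in metastatic tumors by a log2 fold change of -0.37 (SE 0.34), and Ltbp1 had a log2 fold change of 0.01 (SE 0.40, 95% interval -0.78 to 0.81). The 95% intervals of log2 fold changes, here and below, assume a normal distribution and are too narrow for 8 tumors. Metastatic Ltbp1 values lay both above and below all the primary ones. The sign of the Ltbp1 value turned under several settings, to -0.18 with phenotype as a covariate.

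**Figure D2:**
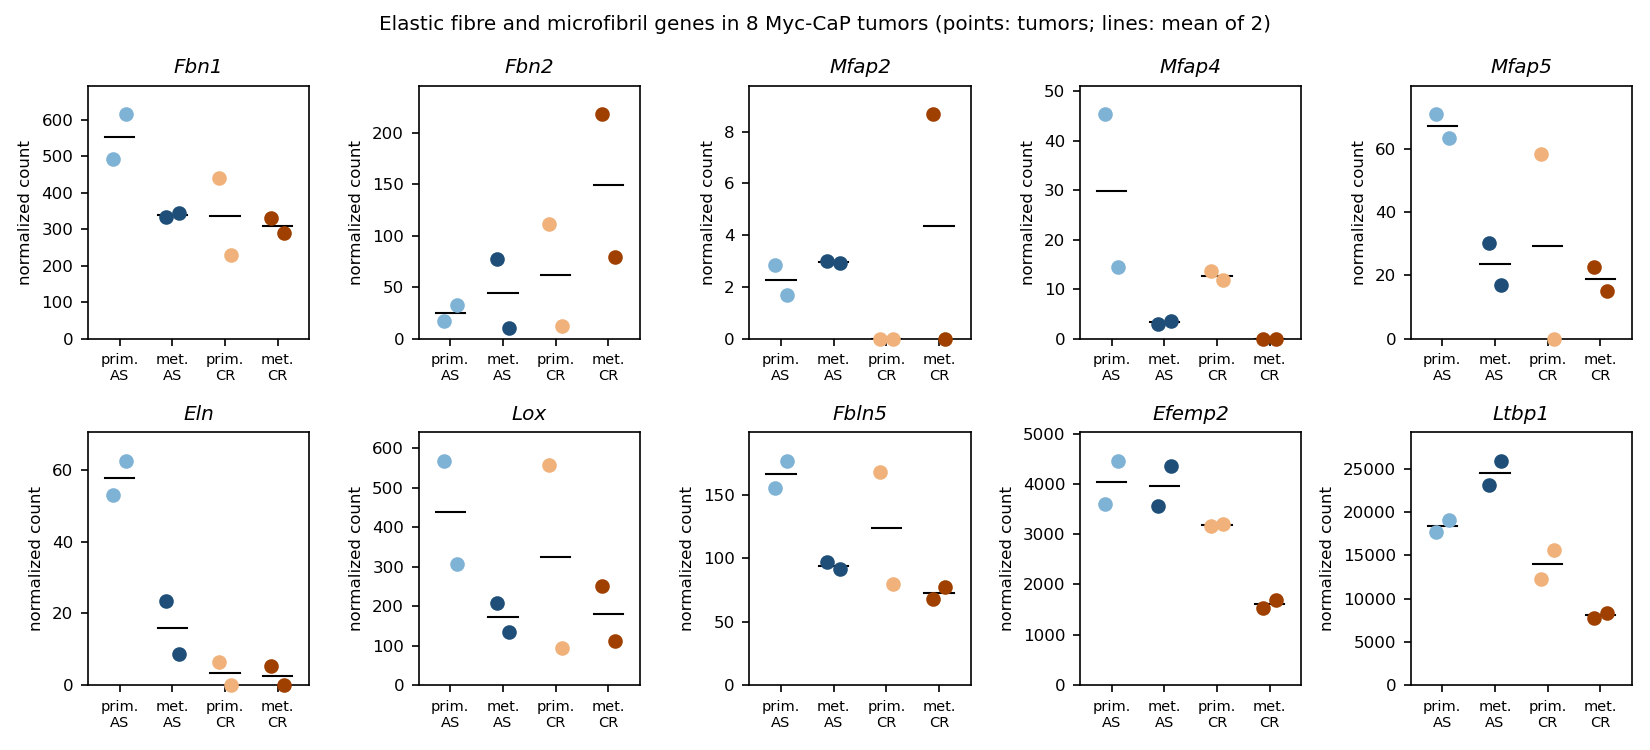
Normalized counts of the 10 members on linear axes from 0, with a point for each tumor and a line for the mean of 2 tumors in each of the 4 groups (primary AS, metastatic AS, primary CR, metastatic CR). Metastatic Mfap4 points are at 0 to 3.49, below primary points from 11.8 to 45.4, and Ltbp1 is highest in metastatic AS and lowest in metastatic CR tumors.

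Within AS tumors alone, metastatic values were below both primary values for Mfap4 and for 5 partners, Mfap5, Eln, Fbn1, Fbln5 and Lox, and above them for Ltbp1 and, on 2 to 5 reads per tumor, for Mfap2. Without overlap and lower were 19.0% of all genes in this comparison of 2 with 2 tumors. The log2 fold change was -3.13 (SE 0.77) for Mfap4, -1.51 (SE 0.43) for Mfap5, -1.85 (SE 0.56) for Eln and -1.33 (SE 0.38) for Lox. It was -0.69 (SE 0.21) for Fbn1 and -0.80 (SE 0.26) for Fbln5. None of the 5 partners passed in edgeR, with adjusted p from 0.476 upward, and all 5 had an unadjusted p under 0.05, as had 3.0% of all genes in this direction. DESeq2 and limma-voom were not run on this subset.

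Within CR tumors alone, the partners Fbln5, Efemp2 and Ltbp1 were lower in both metastatic than in both primary tumors, as were 18.0% of all genes. The mean of Mfap4 was 2.01-fold lower in metastatic CR tumors when their 0 reads are set to the limit of 3 counts in each tumor. That value takes the primary counts as exact. The 4 reads of primary CR2 allow as little as 3.20 normalized counts (exact Poisson interval, 95%), so it is not a lower bound. Efemp2 had a log2 fold change of -0.95 (SE 0.26), Ltbp1 of -0.75 (SE 0.32) and Fbln5 of -0.75 (SE 0.59), all with an adjusted p of 0.999 in edgeR. For Mfap5, Fbn1 and Lox the CR primary tumors themselves were far apart, with primary CR2 below primary CR1 for each of them. Primary CR2 had 0 reads for Mfap5 and Eln and the lowest Fbn1 and Lox values of all 8 tumors, and its total of 24909389 counts was the second lowest.

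**Figure D3:**
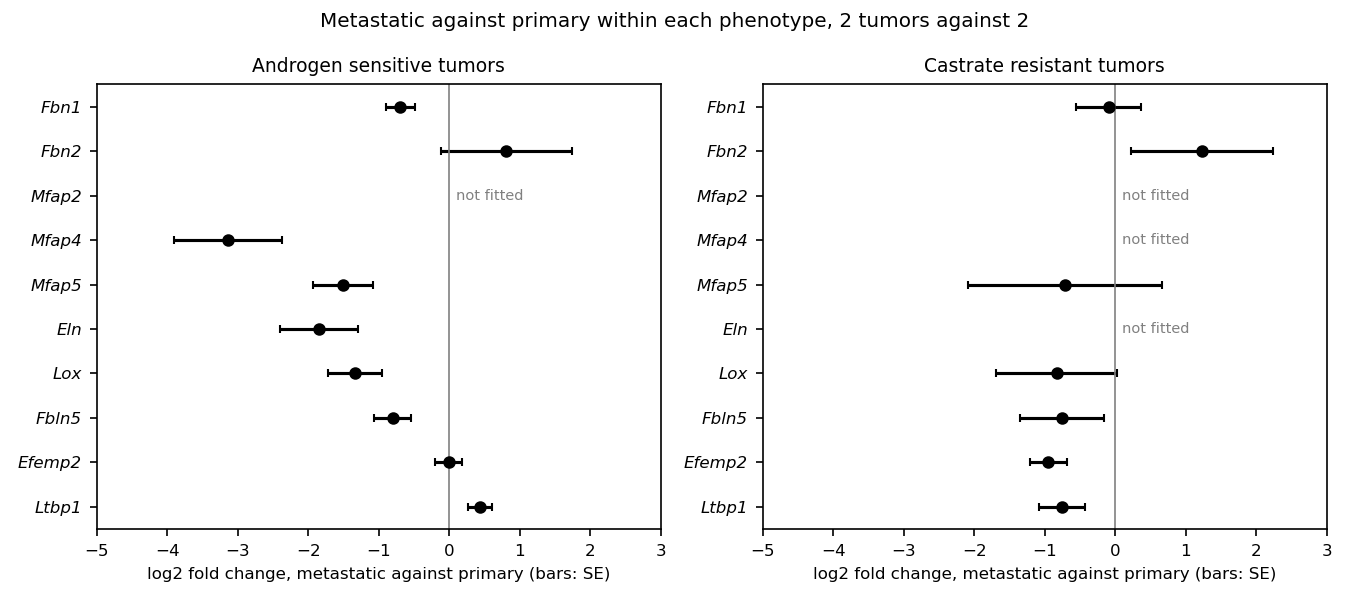
Log2 fold change of metastatic against primary tumors within AS and within CR tumors, with bars for the SE of edgeR's fit on 2 against 2 tumors, and members left out by the low-count filter marked as not fitted. In AS tumors 6 members lie below 0 by more than their SE, from -3.13 to -0.69, and Ltbp1 lies above 0 at 0.44, whereas in CR tumors Ltbp1 is at -0.75.

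The smooth muscle list, whose cells make many of these fibres, summed to 14.6 to 44.8 CPM in primary and 18.4 to 31.3 CPM in metastatic tumors, and 9 of its 10 genes reached 1 CPM in some tumor. The highest sum was in primary AS1, the tumor with the highest Mfap4. There the contractile genes Myh11 and Des were at 10.2 and 7.96 CPM, beside medians of 1.86 and 1.06 over the 8 tumors. Acta2 of the same list was highest in primary CR1, at 7.31 CPM. Primary AS1 also had the highest sums of the prostate secretory, adipocyte, lymphocyte and liver lists, at 15.1, 104, 10.5 and 10115 CPM. The remaining lists were highest in other tumors. The fibroblast list summed to 82.9 to 116 CPM in primary and 67.8 to 203 CPM in metastatic tumors. The part of these cells in the differences of the members was not tested. These muscle genes were named after their values were seen.

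The second comparison set CR against AS tumors, with tumor type as a covariate. Here 3 of 9 tested members fell, Eln, Efemp2 and Ltbp1, none rose, and all 3 separated the groups without overlap. Over all genes, 12.2% were called in either direction and 6.01% were called lower, and 9.82% were lower without overlap. Of the 9 members 8 had a log2 fold change below 0, with a median of -0.70, beside 50.8% of all genes and a median of -0.01.

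Eln (chr5:134702593-134747323, minus strand) showed the widest difference. Its mean was 36.9 ± 25.2 normalized counts in AS and 2.92 ± 3.41 in CR tumors (SD, n = 4 each), with the values per tumor given above. Each AS tumor was above each CR tumor, with 176 reads in all in AS and 12 in CR tumors. The fitted difference was 9.12-fold, a log2 fold change of -3.19 (SE 0.77, 95% interval -4.70 to -1.68, adjusted p = 0.0325 in edgeR). The exact two-sided permutation test gave p = 0.0286, the smallest that 4 against 4 tumors allow. Both tests took the tumors as independent. Matched tumors may come from the same mouse, so the p-values between phenotypes for Eln, Ltbp1 and Efemp2 may be too small. The separation was narrow at its edge, where the 0 reads of primary CR2 allow up to 8.82 normalized counts and metastatic AS2 stood at 8.72. The call was lost without primary AS1, metastatic AS2, primary CR2 or metastatic CR2, with adjusted p between 0.059 and 0.078, and Eln did not pass the filter without metastatic AS1 or primary AS2.

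Ltbp1 (chr17:75005568-75392512, plus strand, 37 merged exons) fell 2.0-fold in CR tumors. The normalized count was 17645 and 19063 in primary AS, 23077 and 25958 in metastatic AS, 12276 and 15618 in primary CR, and 7785 and 8369.7 in metastatic CR tumors. The lowest AS tumor was above the highest CR tumor, with the metastatic AS tumors highest and the metastatic CR tumors lowest. The mean was 21435.5 ± 3792 in AS and 11012 ± 3661 in CR tumors (SD, n = 4 each), a log2 fold change of -0.999 (SE 0.26, 95% interval -1.5 to -0.49, adjusted p = 0.0393 in edgeR, exact permutation p = 0.0286). No read-length window of the longest Ltbp1 transcript occurs in a transcript of another gene, and exon bases outside that transcript were not checked.

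Efemp2 (chr19:5473954-5482517, plus strand) fell 1.76-fold. It had 3600.2 and 4465 normalized counts in primary AS, 3562 and 4356 in metastatic AS, 3153 and 3210.0 in primary CR, and 1535 and 1681 in metastatic CR tumors. The primary CR tumors were close below the AS tumors and the metastatic CR tumors far below them. The mean was 3996 ± 481 in AS and 2395 ± 911 in CR tumors (SD, n = 4 each), a log2 fold change of -0.82 (SE 0.22, 95% interval -1.24 to -0.40, adjusted p = 0.0419 in edgeR, exact permutation p = 0.0286). It shares 173 exon bases with Mus81 on the other strand, and 2.96% of the windows of its longest transcript occur there.

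Calls for both genes were lost when single tumors were left out. Ltbp1 lost its call without primary AS1, metastatic AS1, primary AS2, metastatic AS2, metastatic CR1 or metastatic CR2, with adjusted p up to 0.127. Efemp2 lost it without metastatic AS1, primary AS2, metastatic AS2, metastatic CR1, primary CR2 or metastatic CR2, with adjusted p up to 0.134, and also with total counts in place of TMM factors (adjusted p = 0.0571) and without the covariate (adjusted p = 0.0941). The log2 fold change stayed between -1.18 and -0.83 for Ltbp1 and between -0.999 and -0.68 for Efemp2 in these 8 fits each. Over all genes, 481 to 4133 were called when 1 tumor was left out, in place of 2081.

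The remaining members were not called between phenotypes. The log2 fold change was -1.55 (SE 0.67, adjusted p = 0.167) for Mfap4, -0.70 (SE 0.73, adjusted p = 0.564) for Mfap5 and -0.42 (SE 0.25, adjusted p = 0.301) for Fbn1 in edgeR. It was -0.39 (SE 0.28, adjusted p = 0.393) for Fbln5 and -0.16 (SE 0.51, adjusted p = 0.862) for Lox. Fbn2 was the member with higher values in CR tumors, 105 ± 86.2 against 34.5 ± 30.1 normalized counts (SD, n = 4 each), with a log2 fold change of 1.59 (SE 0.75, adjusted p = 0.201) and overlapping groups. Without the low-count filter Fbn2 was called as well, at an adjusted p of 0.00362.

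**Figure D4:**
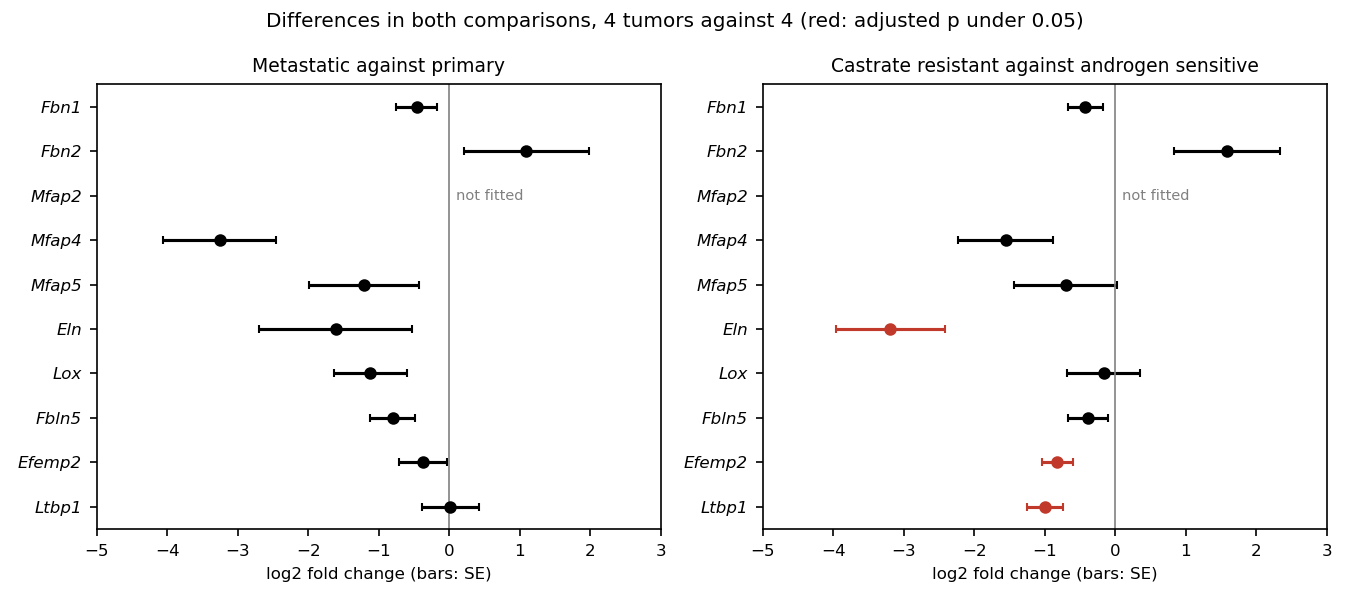
Log2 fold change of each member in metastatic against primary tumors (left) and in CR against AS tumors (right), 4 against 4 tumors, with bars for the SE and red points for an adjusted p under 0.05. No member is red on the left, and Eln at -3.19, Ltbp1 at -0.999 and Efemp2 at -0.82 are red on the right. Both panels use the same 8 tumors.

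Taken by tumor type, the difference between phenotypes in Ltbp1 and Efemp2 was called in metastatic tumors. With 2 CR against 2 AS metastases, Ltbp1 was 3.02-fold lower (log2 fold change -1.60, SE 0.20, adjusted p = 0.0217 in edgeR) and Efemp2 2.45-fold lower (log2 fold change -1.29, SE 0.18, adjusted p = 0.0281 in edgeR). These 2 were the only members called there, beside 5.49% of all genes, and Eln did not pass the filter in this subset. In primary tumors alone no member was called in edgeR, where 0.0233% of all genes were called and 1 member, Eln, was lower at an unadjusted p under 0.05, as were 5.15%. There the log2 fold change was -0.39 (SE 0.29) for Ltbp1, -0.34 (SE 0.27) for Efemp2 and -3.65 (SE 0.90, adjusted p = 0.319 in edgeR) for Eln.

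The interaction of tumor type and phenotype tested whether the difference between metastatic and primary tumors depended on phenotype. No member passed after adjustment in edgeR or DESeq2, and 0.0% of all genes did in edgeR. At an unadjusted p under 0.05 edgeR gave 2 members, Ltbp1 and Efemp2, as did DESeq2, beside 2.74% of all genes. For Ltbp1 the mean was 1.34 times the primary mean in AS metastases and 0.579 times the primary mean in CR metastases. Both AS metastases were above both AS primary tumors and both CR metastases below both CR primary tumors, a pattern that 1.79% of all genes had. The interaction was -1.23 on the log2 scale (SE 0.32, unadjusted p = 0.00518, adjusted p = 0.964 in edgeR). For Efemp2 the ratio was 0.982 in AS and 0.506 in CR tumors, with an interaction of -0.98 (SE 0.31, unadjusted p = 0.0123, adjusted p = 0.964 in edgeR).

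Marker lists were compared between phenotypes as well, where 12.2% of all genes were called in either direction and 6.01% were called lower. Of the epithelial list, 2 of 10 genes were called higher in CR tumors. The fibroblast list summed to 82.9 to 203 CPM in AS and 67.8 to 116 CPM in CR tumors, with 1 of 10 genes called lower. The smooth muscle list summed to 18.4 to 44.8 CPM in AS and 14.6 to 32.4 CPM in CR tumors, with none of 10 genes called by edgeR and 3 at an unadjusted p under 0.05, beside 28.8% of all genes. The liver list was 99.5% fibrinogen beta (Fgb) and summed to 3718 to 10115 CPM in AS and 95.4 to 1975 CPM in CR tumors, with 3 genes called lower, whereas 5 of its 10 genes were under 1 CPM in every tumor. The fibroblast and smooth muscle sums overlapped between phenotypes and the liver sums did not. The part of these lists in the differences of Eln, Ltbp1 and Efemp2 was not tested.

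Other genes of the elastic fibre pathway were taken from lists written by function. Of 25 further elastic fibre and microfibril genes 21 were tested. Between phenotypes 1 rose and 1 fell, beside 12.2% of all genes called in either direction, and the list median was -0.17. Fbln2, another fibulin of basement membranes and elastic fibres, rose in CR tumors, from 341 ± 125 to 1167 ± 490 normalized counts (log2 fold change 1.77, SE 0.31, adjusted p = 0.0129 in edgeR). Adamtsl4, a secreted protein that binds fibrillin microfibrils, fell from 411 ± 134 to 149 ± 58.1 (log2 fold change -1.49, SE 0.27, adjusted p = 0.0145 in edgeR). Neither gene overlapped between the groups, and Fbln2 moved opposite to the related member Efemp2. Fbln2 kept its call with each tumor left out, and Adamtsl4 lost it without metastatic AS1 or metastatic AS2 (adjusted p up to 0.0545 in edgeR).

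Of 10 genes for TGF-beta ligands, related ligands and TGF-beta latency, 8 were tested and none was called between phenotypes by edgeR. There were 2 at an unadjusted p under 0.05, 1 in each direction, beside 28.8% of all genes, with a list median of -0.46. Of 9 receptors of elastic fibre proteins, all tested, 1 rose and none fell, beside 12.2% of all genes called in either direction. It was Itgb8, the beta subunit of an integrin that activates latent TGF-beta. Itgb8 had 10.6 ± 2.62 normalized counts in AS and 58.5 ± 38.0 in CR tumors (log2 fold change 2.23, SE 0.45, adjusted p = 0.0189 in edgeR). The call was lost without metastatic AS1, primary AS2, metastatic AS2 or metastatic CR1, with adjusted p up to 0.0843.

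Of 10 elastolytic enzymes 9 were tested, 2 rose and 1 fell, beside 12.2% of all genes called in either direction. The cysteine protease gene Ctsl fell from 28136 ± 2982 in AS to 14612 ± 2346 in CR tumors (log2 fold change -0.95, SE 0.18, adjusted p = 0.0156 in edgeR). Cela1, a pancreatic-type elastase, rose from 23.3 ± 6.95 to 114 ± 56.1 (log2 fold change 2.15, SE 0.44, adjusted p = 0.0205 in edgeR). Prtn3, a serine protease of neutrophil granules, rose from 14.3 ± 8.05 to 55.4 ± 22.8 (log2 fold change 1.91, SE 0.45, adjusted p = 0.03 in edgeR). Without metastatic AS1 or primary AS2 the calls of Ctsl and Cela1 were lost (adjusted p up to 0.0628 and 0.0758), that of Ctsl also without metastatic AS2, and that of Prtn3 was lost without any single tumor except primary CR1 (adjusted p up to 0.102). In primary tumors alone, none of these 6 list genes was called. In metastatic tumors alone, edgeR called Itgb8 and Adamtsl4 (adjusted p = 0.0358 and 0.0408), beside 5.49% of all genes. Fbln2, Ctsl, Cela1 and Prtn3 were not called there (adjusted p from 0.0629 to 0.155 in edgeR). Between metastatic and primary tumors none of these lists had a called gene in edgeR, and the list medians ran from -0.76 for the elastolytic enzymes to 0.02 for the receptors.

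The genes whose pattern was most like that of Ltbp1 over the 8 tumors, by Pearson's r of log2(CPM + 1), were Mrps36 and Rell2 at 0.98 and Sec14l2, Arhgap27 and Ncs1 at 0.97. For Mfap4 they were RP23-74N15.4 at 0.98 and Larp1b, Gm15684, Map2k4 and D330041H03Rik at 0.94. These are descriptions over 8 tumors that share library depth and phenotype groups. With a pseudocount of 0.1 in place of 1, the lists kept 4 of 5 genes for Ltbp1 and 1 of 5 for Mfap4.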

How the data were processed

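The authors depleted ribosomal RNA, made stranded libraries, sequenced paired-end reads of 101 bases, mapped them to mm10 with Bowtie, kept reads with a single location and up to 2 mismatches, and counted them per gene. The deposited values are raw counts. The submitters' processing notes also name CASAVA 1.8.2, TopHat2 2.0 and GRCm38. The counting tool, annotation release and strand setting are not given in the sources used here. The members and gene lists were chosen with earlier results of these data known.

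Counts were tested in R 4.3.3 with edgeR 4.0.16 (filterByExpr, TMM factors, quasi-likelihood test, Benjamini-Hochberg adjustment over all genes tested, threshold 0.05): 17104 genes for metastatic against primary tumors without a covariate, 17104 for CR against AS with tumor type as a covariate, and 18889 for the interaction. DESeq2 1.42.0 and limma 3.58.1 (voom), RLE factors, total counts, no filter, other covariates, the 4 possible pairings, each phenotype or tumor type alone and leaving out each tumor were alternatives. The SE is the size of the log2 fold change divided by the square root of F. The 95% intervals of log2 fold changes take this SE with a normal distribution, so they are narrower than the quasi-likelihood test implies. The fits were checked on simulated counts. No label names a mouse, and matched tumors enter the main fits and the permutation test without a block. The p-values therefore measure the spread between these tumors and not between mice. Total counts of 20905806 to 91886163 leave counting error mainly in members with few reads.

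Coordinates, exons and lengths are from GENCODE M21 (mm10), in which 36343 of 38115 identifiers were found. Windows of 101 bases of the longest transcript of each member were matched to the GENCODE M21 transcripts with bwa 0.7.19. Other transcripts of the members gave no windows. All 10 members were named, with the list genes past the threshold (at most 6 per list and comparison) and the 5 genes most like Mfap4 and Ltbp1. Figures were drawn with matplotlib 3.10.9. Values of some marker genes are not reported here.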

Additional observations from a re-analysis of the deposited data

Results flagged for a closer look

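Within groups of 4 tumors, 40 groups of member values were checked for a tumor far from the others, and chance alone would flag about 1 in 20. In primary tumors, Mfap4 in primary AS1 stood at 45.4 normalized counts, with the others at 11.8 to 14.4. In CR tumors, Fbln5 in primary CR1 stood at 167, with the others at 67.7 to 79.4. Mfap2 in metastatic CR1 was at 8.67, from 5 reads, with the other CR tumors at 0, although 0 reads allow up to 8.82 in primary CR2, so these values are not apart at this depth, and Mfap2 in primary AS2 was the lowest AS tumor at 1.69, from 2 reads, with the others at 2.84 to 3.01.

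The difference in Ltbp1 between metastatic and primary tumors had opposite directions in AS and CR tumors, with an interaction of -1.23 on the log2 scale (unadjusted p = 0.00518 in edgeR). It did not pass adjustment over all genes (adjusted p = 0.964). The metastases lay above the primary tumors in AS and below them in CR without overlap, as in 1.79% of all genes. This pattern comes from the same values as the interaction and adds no support to it.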

How the results depend on the processing

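Over 39 results and 603 alternative values, 495 kept their direction and their side of the threshold, or moved within the limits set, 14 changed sign and 94 changed otherwise. The number of members called between metastatic and primary tumors was 0 in all 20 alternatives, and that for the interaction was 0 in all 11. The number called in CR against AS tumors was 3, ran from 0 to 3 with each tumor left out and was 0 in primary tumors alone. The Ltbp1 difference between metastatic and primary tumors (0.01 on the log2 scale) was -0.22 with limma-voom, -0.0028 without the filter, -0.18 with phenotype as a covariate, -0.75 in CR tumors alone, and from -0.30 to 0.26 with each tumor left out. The labels do not say which tumors match, and the 4 possible pairings as a replicate block gave -0.18 for it in each case. Lox in CR against AS tumors (-0.16) was 0.091 in metastatic tumors alone and from -0.70 to 0.20 with each tumor left out. Over all genes, DESeq2 called 3544 and total counts 1271 between phenotypes, in place of 2081, and the interaction called 217 without the filter, in place of 0. Total counts moved the median of all genes by -0.11 between phenotypes. Where a group was left with 1 tumor, it was assumed to vary like the others. The causes of these changes were not tested. Depth limits Mfap2, Mfap4, Mfap5 and Eln, which had 0 reads in at least 1 tumor.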
